A study of Mus musculus with 12 samples.

Results

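Sperm ion channels and pumps are described here through the 6 genes Catsper1, Catsper2, Catsper3, Catsper4, Kcnu1 and Atp1a4, whose products move calcium, potassium and sodium across the sperm membrane. Members were all probe sets annotated to 1 of these symbols alone. Of the 45101 probe sets and 18193 named genes on the arrays, 6 probe sets and 5 genes met this. Catsper2 had 2 probe sets, the other 4 genes had 1 each, and Catsper4 was not analysed here. Expression arrays, 12 in all, were hybridised with total mouse RNA, 3 arrays in each of 4 groups. The RNA came from male germ cells and from germ cell-like cells produced in vitro. Spermatid-like cells (SLC) were produced by in vitro differentiation. Round spermatids (RS), the haploid germ cells formed by meiosis, came from BDF1 testis at 3 weeks of age. Primordial germ cell-like cells (PGCLC) were taken at day 6 of in vitro differentiation. Primordial germ cells (PGC), the embryonic precursors of sperm, came from the genital ridge of BDF1 male fetuses at E12.5. All cells were collected by FACS. The labels name neither the gate nor the starting cells of the 2 in vitro groups, and they call the samples biological replicates. P values therefore measure the spread between these samples.

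CatSper is the calcium channel of the sperm tail. CATSPER1, CATSPER2, CATSPER3 and CATSPER4 together form its pore, and a set of auxiliary subunits is needed for the complex to assemble along the principal piece of the flagellum. The channel opens when the sperm interior becomes alkaline, and the calcium that enters drives the vigorous tail beating called hyperactivation, without which mouse sperm do not fertilize. Kcnu1 encodes SLO3, a potassium channel of sperm that is likewise opened by alkaline pH and hyperpolarizes the membrane during capacitation. Atp1a4 encodes the testis isoform of the catalytic subunit of the Na,K-ATPase, which keeps sodium low in sperm and is needed for motility. Messenger RNAs of sperm tail proteins are made in spermatocytes and round spermatids, before the nucleus condenses.

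The promoters of the members are shown because the genes moved together across the groups. The RefSeq promoter table of build GRCm38.p6 held 4 of the 6 members. Catsper1 and Kcnu1 are named only, and the Catsper4 window is left out because the expression of that gene was not analysed here. Each window runs from 250 bases before to 50 after the annotated start, written 5′ to 3′ on the strand of the gene. Catsper2 lies at chr2:121413743-121414042 on the minus strand, Catsper3 at chr13:55784329-55784628 on the plus strand and Atp1a4 at chr1:172258375-172258674 on the minus strand. Capitals mark the motif matches described next.
Catsper2: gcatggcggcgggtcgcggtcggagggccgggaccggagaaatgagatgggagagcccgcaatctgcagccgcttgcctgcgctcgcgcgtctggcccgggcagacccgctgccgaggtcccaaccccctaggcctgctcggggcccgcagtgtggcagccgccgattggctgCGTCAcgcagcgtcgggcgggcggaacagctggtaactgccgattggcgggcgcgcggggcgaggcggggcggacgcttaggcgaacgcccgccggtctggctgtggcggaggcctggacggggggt
Catsper3: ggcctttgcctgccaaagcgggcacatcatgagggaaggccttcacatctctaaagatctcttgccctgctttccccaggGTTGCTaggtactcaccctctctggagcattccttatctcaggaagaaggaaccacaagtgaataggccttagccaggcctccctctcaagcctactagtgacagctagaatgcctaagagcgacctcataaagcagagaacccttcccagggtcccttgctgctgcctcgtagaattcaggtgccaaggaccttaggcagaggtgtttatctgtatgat
Atp1a4: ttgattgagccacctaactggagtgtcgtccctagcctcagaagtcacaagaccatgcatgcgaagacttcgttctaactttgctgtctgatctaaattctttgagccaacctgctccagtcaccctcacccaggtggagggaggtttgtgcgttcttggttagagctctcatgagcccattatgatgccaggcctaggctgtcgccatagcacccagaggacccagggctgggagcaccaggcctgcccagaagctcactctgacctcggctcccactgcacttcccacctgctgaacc
The windows were searched on both strands for the cAMP response element TGACGTCA, its shorter core TGACG, the X-box core GTTGCC or GTTGCT bound by RFX factors, and the TATA box TATAAA. The core TGACG is contained in the full element, so these 2 motifs overlap. The Catsper2 window held the core on the other strand, written CGTCA, from base 174, and 20.8% of 32851 promoters of this length held it. The Catsper3 window held GTTGCT from base 81, and 25.1% of promoters held either form. Of the searched letters, none was in the Atp1a4 window, and the full element and the TATA box, held by 1.79% and 13.6% of promoters, were in none of these 3 windows. Catsper2 overlaps Pdia3 in the annotation, and whether its window also serves that gene was not tested. The Catsper2 window was rich in CpG, with 41 CpG dinucleotides and a GC content of 74.7%. Only 3.46% of promoters held as many, and the median was 7. The Catsper3 and Atp1a4 windows held 3 and 6 CpG at 52.3% and 55.7% GC.

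Signals are linear intensity units, scaled by the authors to a common level on each array. Array medians lay between 73.2 and 107 units. Differences are between group means of log2 signal, after values under a floor of 30.7 units (the 25th percentile of the table) were set to it. A gene was called at a Benjamini-Hochberg adjusted p under 0.05 and at least 2-fold, by limma over all 14197 genes tested. Pearson's r between arrays of a group, across genes that are not independent replicates, was 0.984 to 0.987 in SLC, 0.976 to 0.984 in RS, 0.914 to 0.976 in PGCLC and 0.986 to 0.988 in PGC. The 7 round spermatid markers (Acrv1, Spaca1, Tnp1, Tnp2, Prm1, Prm2 and Acr) summed to 104942 to 107568 units on SLC arrays and 133033 to 144284 on RS arrays. Their sum was 198 to 338 units on PGCLC arrays and 218 to 369 on PGC arrays. The 6 fetal germ cell markers (Pou5f1, Dppa3, Prdm1, Nanog, Ddx4 and Dazl) summed to 23109 to 54128 units on PGCLC arrays and 59654 to 63039 on PGC arrays. On SLC arrays they summed to 8763 to 9902 units, and on RS arrays to 13920 to 14489. Nanog was at the floor on every SLC and RS array. Ddx4 was not low there, at a mean of 7461 units in SLC and 11380 in RS, beside 3410 in PGCLC and 7327 in PGC. Dazl averaged 1344 units in SLC and 2456 in RS.

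The transcripts of the CatSper pore, of SLO3 and of the α4 pump were abundant in SLC and in RS and low in PGCLC and PGC. Of the 6 early arrays, none was above the table median of 92.0 units for Catsper1, Catsper3 and Atp1a4, 2 were for Kcnu1 and all 6 for Catsper2. Signals in SLC stood at 57.0% to 61.3% of those in RS for all 5 genes, a difference smaller than the 2-fold that a call needs. Between PGCLC and PGC no member was called. The order of the levels was the same for each member, with RS highest and SLC next. PGCLC and PGC, which differed by less than the threshold, were lowest. In bulk RNA of this kind, fewer cells of a type and less RNA per cell cannot be told apart.

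Catsper1, a pore subunit of CatSper, had 2500.1, 2655 and 2598 units on the SLC arrays and 3923, 4495 and 4249 units on the RS arrays. It had 80.2, 68.9 and 46.6 units on the PGCLC arrays and 44.8, 52.8 and 25.9 units on the PGC arrays. Every spermatid-stage array lay far above every early array, the SLC arrays all lay below the RS arrays, and PGCLC and PGC overlapped. Between stages Catsper1 was higher by 5.34 on the log2 scale in SLC than in PGCLC (SE 0.22, limma adjusted p = 6.99e-10) and by 6.66 in RS than in PGC (SE 0.22, limma adjusted p = 5.55e-11). These correspond to 40.6-fold and 101-fold, the second with 1 of 3 PGC arrays at the floor.

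Catsper2, another pore subunit, whose loss in mice leaves sperm unable to hyperactivate, had 5203, 4932 and 4956 units in SLC and 8260.1, 8403 and 8819 units in RS. It had 173, 183 and 124 units in PGCLC and 229, 179 and 204 units in PGC. By this probe set, its brighter, Catsper2 was the single member above the table median on every array of the early groups. The log2 difference was 4.99 between SLC and PGCLC (SE 0.14, limma adjusted p = 2.32e-11) and 5.39 between RS and PGC (SE 0.14, limma adjusted p = 7.69e-12).

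The other Catsper2 probe set had 212, 264 and 289.5 units in SLC and 449, 461 and 444 units in RS. It had 68.7, 170.3 and 84.2 units in PGCLC and 83.7, 91.6 and 104 units in PGC. RS was again highest and SLC next, with a smaller gap between stages, but PGCLC and PGC stood the other way round, at a PGCLC minus PGC log2 of 0.10 by this probe set and -0.36 by the brighter one, neither of them called. The log2 difference was 1.35 between SLC and PGCLC (SE 0.29) and 2.28 between RS and PGC (SE 0.29), with limma adjusted p of 0.00116 and 1.11e-05 over probe sets, so between stages the 2 probe sets agree in direction and not in size. In the annotation Catsper2 overlaps Pdia3, and whether either probe set also detects that transcript was not tested.

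Catsper3, a pore subunit that mouse sperm likewise need for hyperactivation, had 2266, 2319 and 2456 units in SLC and 3885, 3849 and 3820.1 units in RS. It had 42.7, 40.7 and 18.8 units in PGCLC and 29.5, 46.3 and 30.0 units in PGC. The RS arrays lay close together, with a coefficient of variation of 0.849%, and 1 PGCLC and 2 PGC arrays were at the floor. The log2 difference was 5.96 between SLC and PGCLC (SE 0.18, limma adjusted p = 4.45e-11) and 6.77 between RS and PGC (SE 0.18, limma adjusted p = 9.06e-12).

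Kcnu1, the pore of the SLO3 channel, had 2677, 2283 and 2271 units in SLC and 4835, 3894 and 3971 units in RS. It had 95.8, 58.8 and 96.6 units in PGCLC and 54.8, 40.2 and 77.5 units in PGC. Taking the brightest probe set of each gene, it had the widest spread of the members within SLC and within RS, with coefficients of variation of 9.59% and 12.3%, and still the SLC and RS arrays did not overlap. The log2 difference was 4.88 between SLC and PGCLC (SE 0.25, limma adjusted p = 4.30e-09) and 6.25 between RS and PGC (SE 0.25, limma adjusted p = 2.51e-10).

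Atp1a4, the testis isoform of the sodium pump, had 6478, 6574 and 5898 units in SLC and 10536, 11004 and 11264 units in RS. It had 4.24, 10.4 and 1.65 units in PGCLC and 11.99, 17.9 and 37.4 units in PGC. All 3 PGCLC arrays and 2 of 3 PGC arrays were at the floor, so its early level has only an upper bound. It was at least 205-fold higher in SLC than in PGCLC (log2 7.68, SE 0.12, limma adjusted p = 7.86e-14) and 333-fold higher in RS than in PGC (log2 8.38, SE 0.12, limma adjusted p = 2.84e-14), with values under the floor set to it.

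**Figure D1:**
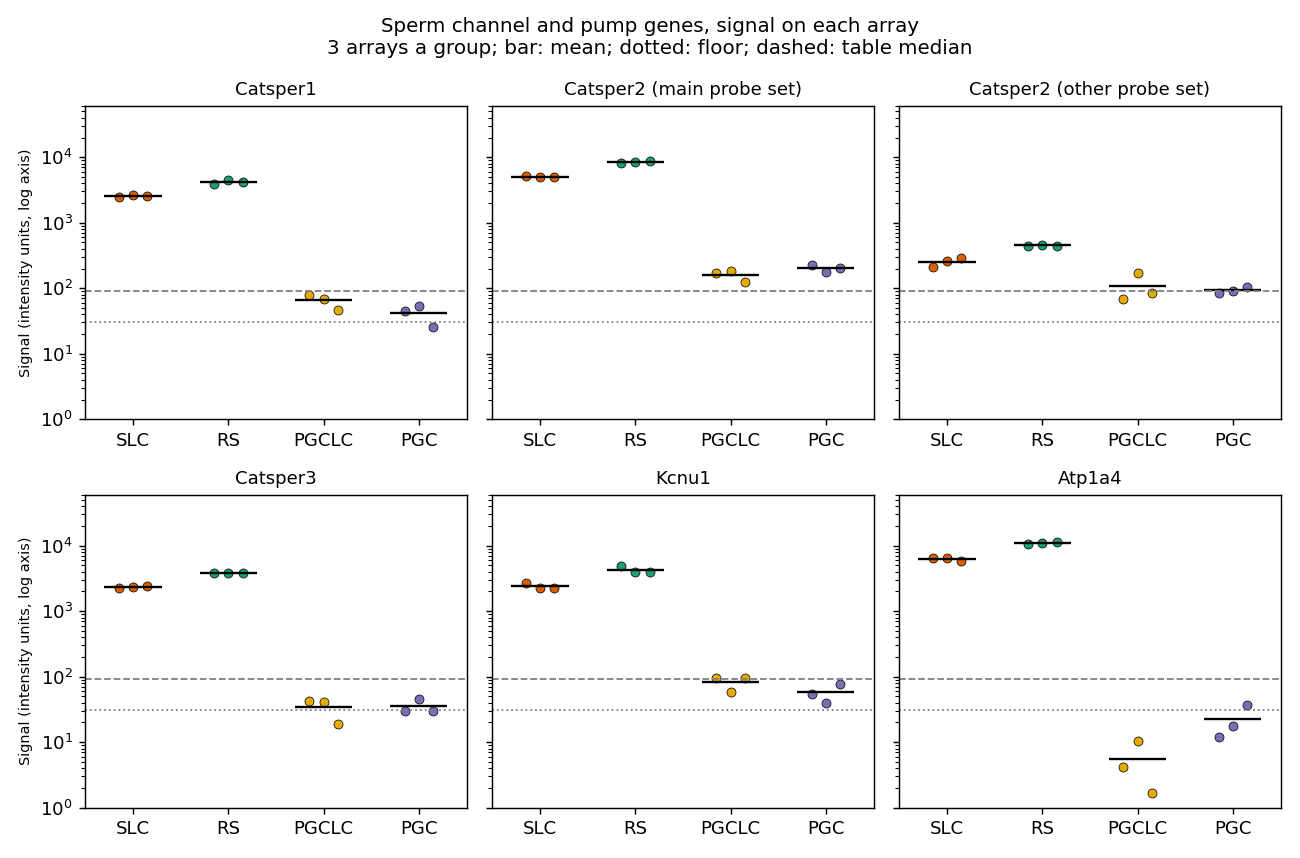
Signal of the 6 probe sets of the 5 measured genes on each of 12 arrays, in intensity units on a log axis, for SLC, RS, PGCLC and PGC. Points are arrays, bars are means of 3 arrays, the dotted line is the floor of 30.7 units and the dashed line the table median of 92.0 units; in every panel RS is highest and SLC just below it.

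By stage, 5 of 5 members were called higher in SLC than in PGCLC, where 29.4% of genes tested were called higher, and 5 of 5 in RS than in PGC, where 31.5% were. The filter on low values asked for a signal above the table median on at least 3 arrays, and 4 of the 5 members, all but Catsper2, had fewer than 3 such early arrays and passed through SLC and RS. For them a stage difference was thus a condition of being measured, and their counts are a description. The median of all genes was -0.07 on the log2 scale for SLC minus PGCLC and -0.22 for RS minus PGC. Quantile normalization moved the second median to -0.05, and relative to the median the members stood at 5.16 to 8.17 under it, against 5.61 to 8.60 with the deposited scaling.

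Against RS, the log2 difference of SLC was -0.71 for Catsper1 (SE 0.22, limma adjusted p = 0.0166), -0.76 for Catsper2 (SE 0.14, limma adjusted p = 0.000797) and -0.72 for Catsper3 (SE 0.18, limma adjusted p = 0.00554). For Kcnu1 it was -0.81 (SE 0.25, limma adjusted p = 0.0142) and for Atp1a4 -0.79 (SE 0.12, limma adjusted p = 0.000115). The other Catsper2 probe set gave -0.83 (SE 0.29, limma adjusted p = 0.0270 over probe sets). The 5 differences lay within 0.10 of each other, less than the smallest of their standard errors. None of the 5 was called at 2-fold by limma, while 3.32% of genes were called lower. When no minimum fold was asked for, all 5 were lower (adjusted p under 0.05), as were 31.5% of genes, and the SLC arrays lay wholly below the RS arrays for all 5, as for 40.4% of genes.

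**Figure D2:**
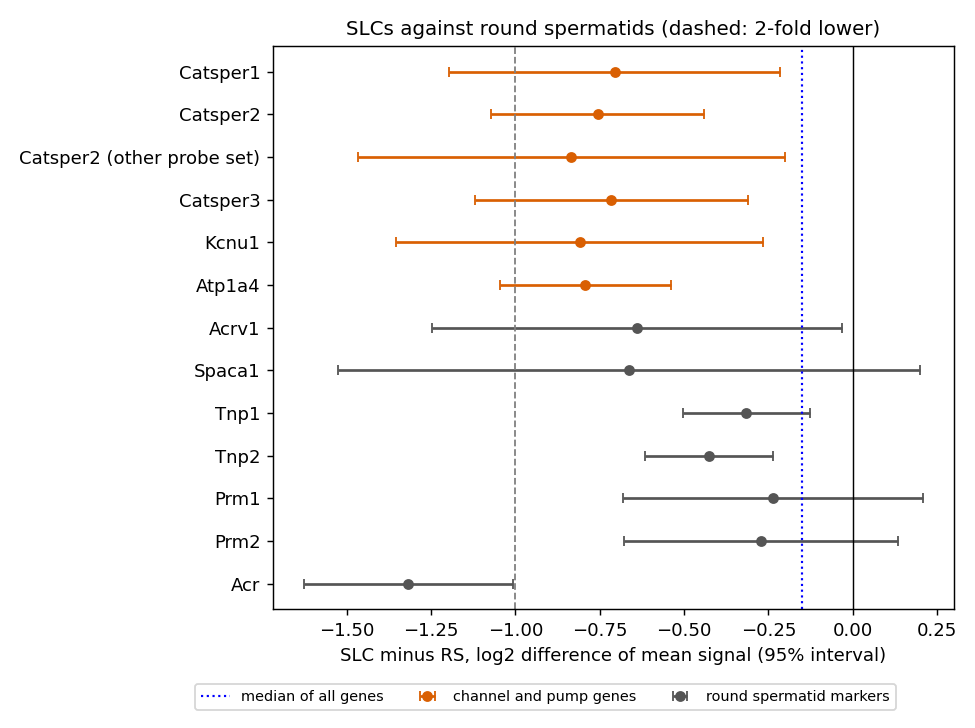
SLC minus RS difference of mean log2 signal with its 95% interval (limma) for the members (orange) and for 7 round spermatid markers (grey), with the median of all genes dotted and 2-fold lower dashed. The members cluster between -0.83 and -0.71. Of the markers only Acr (-1.32) lies lower, and the others lie higher, from -0.66 for Spaca1 to -0.24 for Prm1.

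The median of all genes for SLC minus RS was -0.15 with the deposited scaling, -0.40 with median centring and -0.33 with quantile normalization. The share of calls that were higher in SLC was 87.6%, 54.0% and 55.1% under these settings. Relative to that median the members stood at -0.66 to -0.55, at -0.67 to -0.57 and at -0.28 to -0.10. Median centring brought 3 of the 5, Catsper2, Kcnu1 and Atp1a4, past 2-fold, and with quantile normalization the largest adjusted p was 0.0844, that of Catsper1.

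Markers of several other testis cell types also differed between these groups. The 4 peritubular and connective tissue markers summed to 44142 to 44876 units on SLC arrays and 1566 to 1763 on RS arrays. All 4 were called higher in SLC, where 23.5% of all genes were. The 4 measured Leydig cell markers of 5 listed summed to 7200.3 to 7617 units in SLC and 176 to 245 in RS, where Cyp11a1 was at the floor on all arrays. Of these, 3 were called higher in SLC, and Cyp17a1, at a mean of 33.9 units in SLC and 109 in RS, was not called. Of 2 Cyp11a1 probe sets that passed the filter, only 1, the brighter, was higher in SLC. The 4 measured Sertoli cell markers of 6 summed to 3808 to 3851 in SLC and 597 to 756 in RS, and all 4 were called higher. The 4 macrophage markers summed to 903 to 1091 in SLC and 581 to 686 in RS. Of these 1 was called higher, Lyz2, at a mean of 439.7 units in SLC and 113 in RS. Cd68 (log2 1.13, limma adjusted p = 0.149), Csf1r (log2 -0.04) and Adgre1 (log2 -0.21) were not called. The 3 endothelial markers summed to 340.5 to 480.5 units in SLC and 296 to 338 in RS. Cdh5 was called higher, and the others were lower in sign and not called. Among the markers called higher, Myh11 (peritubular), Star (Leydig) and Lyz2 passed the filter only with their SLC arrays, so their calls are a description. The 6 spermatocyte markers summed to 17909.6 to 18223 units in SLC and 27573 to 28481 in RS, and none of them was called by limma (5 were lower at an adjusted p under 0.05). The log2 ratio of 3′ to 5′ Gapdh control probe sets was -0.56 to -0.43 in SLC and -0.0083 to 0.20 in RS, while for Actb it was 0.33 to 0.60 in SLC and 0.46 to 0.49 in RS. The 7 round spermatid markers themselves had a median difference of -0.43, between -1.32 for Acr, an acrosomal protease, and -0.24 for Prm1, a protamine. When SLC and RS arrays were centred on these markers, an alternative chosen after seeing the data, the members stood at -0.40 to -0.30, and Atp1a4 alone had a limma adjusted p under 0.05 (0.0273), with 0.0797 to 0.307 for the others. The part of the other cell types and of RNA quality in the differences was not tested.

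Between PGCLC and PGC, none of the 5 members was called by limma, where 11.9% of genes were, and 3 (Catsper1, Catsper2 and Kcnu1) had an unadjusted p under 0.05. The log2 differences were 0.61 for Catsper1 (adjusted p = 0.0597), -0.36 for Catsper2 (0.0768), 0.10 for Catsper3 (0.742), 0.56 for Kcnu1 (0.109) and -0.09 for Atp1a4 (0.579), all by limma. For Catsper1, Catsper2, Catsper3 and Kcnu1 the PGCLC and PGC arrays overlapped. The Atp1a4 arrays did not, at 1.65 to 10.4 units in PGCLC and 11.99 to 37.4 in PGC (20.2% of genes lay wholly below in this way), but 5 of these 6 values are under the floor. With the floor lowered to the 10th percentile of the table, Atp1a4 was called lower in PGCLC (log2 -1.19, limma adjusted p = 0.0215). The PGCLC arrays were less alike than those of the other groups, and leaving out PGCLC replicate 2 gave Kcnu1 0.79 (limma adjusted p = 0.0115) and Catsper2 -0.47 (limma adjusted p = 0.0143). Leaving out PGCLC replicate 3 gave Catsper1 0.83 (limma adjusted p = 0.0294), and no array left out brought a member past 2-fold. The share of all calls that were higher in PGCLC was 86.5%, and 52.9% with median centring and 73.7% with quantile normalization. The median of all genes was 0.0062, and -0.23 with median centring.

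The change between stages was then compared between culture and animal, as SLC minus PGCLC less RS minus PGC. Catsper1 and Kcnu1 changed less in culture, with interaction terms of -1.31 (SE 0.32, limma adjusted p = 0.00556) and -1.37 (SE 0.35, limma adjusted p = 0.00792), and were called. The terms were -0.39 for Catsper2 (adjusted p = 0.132), -0.81 for Catsper3 (0.0239) and -0.70 for Atp1a4 (0.00480), none past 2-fold by limma. Thus 2 of 5 members were called lower, where 11.1% of genes were. The same term is also SLC minus RS less PGCLC minus PGC, and for Catsper1 and Kcnu1 these parts were -0.71 less 0.61 and -0.81 less 0.56. Of the PGCLC and PGC arrays, none exceeded the table median for Catsper1, and 2 PGCLC arrays did for Kcnu1. With quantile normalization neither was called (adjusted p = 0.0573 and 0.0648). The Atp1a4 term rests on the floor, and with the floor at the 10th percentile it was 0.39 (adjusted p = 0.524). Of all calls 65.1% were higher, and 54.8% with quantile normalization.

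**Figure D3:**
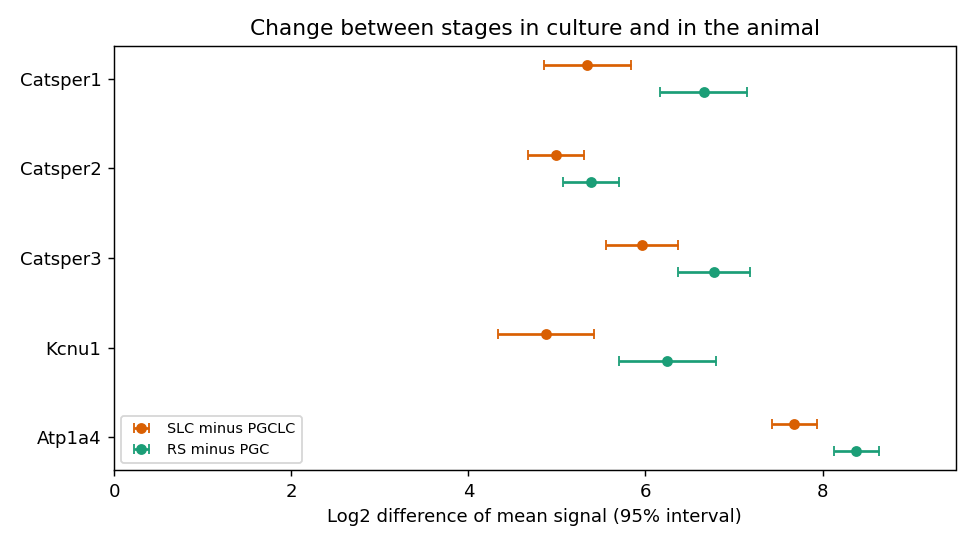
Change between stages of each member as the difference of mean log2 signal with its 95% interval (limma), SLC minus PGCLC in orange and RS minus PGC in green. As plotted, the change in culture is the smaller of the 2 for each member, by 0.39 to 1.37 on the log2 scale, and the gap passed the threshold for Catsper1 and Kcnu1; it turns round for Catsper2 with quantile normalization and for Atp1a4 with a lower floor or none.

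Transcripts of the CatSper auxiliary subunits were abundant in the same groups as the pore. Of 12 listed, 8 were measured, Catsperg2 was under the filter, and Catsperb, Catspere1 and Catspere2 were not analysed here. All 8 were called higher in RS than in PGC and in SLC than in PGCLC, where 31.5% and 29.4% of genes were. None of the 8 had 3 early arrays above the table median, so they passed the filter through SLC and RS, and the stage counts are a description. Catsperz, which with EFCAB9 forms the calcium-sensing unit of the channel, averaged 10029 ± 361 units in SLC, 16146 ± 1339 in RS, 50.01 ± 31.3 in PGCLC and 35.8 ± 7.97 in PGC (SD, n = 3 each). Its log2 difference was 8.84 between RS and PGC (SE 0.27, limma adjusted p = 2.57e-11). Efcab9 averaged 5434 ± 185 units in SLC, 9312 ± 452 in RS, 32.5 ± 15.2 in PGCLC and 36.8 ± 11.6 in PGC (SD, n = 3 each), a difference of 7.92 between RS and PGC. The others were the transmembrane subunits Catsperd (6.45) and Catsperg1 (4.76), the transporter-like Slco6c1 (7.83), the targeting subunit C2cd6 (6.76), Tmem262 (3.26) and Tmem249, at least 23.8-fold higher in RS than in PGC, where it was at the floor on all 3 arrays.

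Against RS, 2 of the 8 auxiliary subunits fell in SLC and 0 rose, where 3.32% of genes were called lower and 23.5% higher, and their median was -0.79 where all genes had -0.15. Catsperg1 had 481, 331 and 311 units in SLC and 1315, 977 and 1073 units in RS, with no overlap (log2 -1.60, SE 0.30, limma adjusted p = 0.000784). Tmem249 had 254, 334 and 299.9 units in SLC and 687, 708 and 803 units in RS, again apart (log2 -1.31, SE 0.17, limma adjusted p = 4.62e-05). The other 6 lay between -0.89 for Catsperd and -0.36 for Tmem262, a range that holds the values of the 3 pore subunits. The stage change was called smaller in culture for 4 of the 8 (Catsperg1, Catsperd, Catsperz and Tmem249), where 11.1% of genes were. For Tmem249 all PGCLC and PGC arrays were at the floor. Its term of -1.31 is therefore its SLC minus RS difference again.

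**Figure D4:**
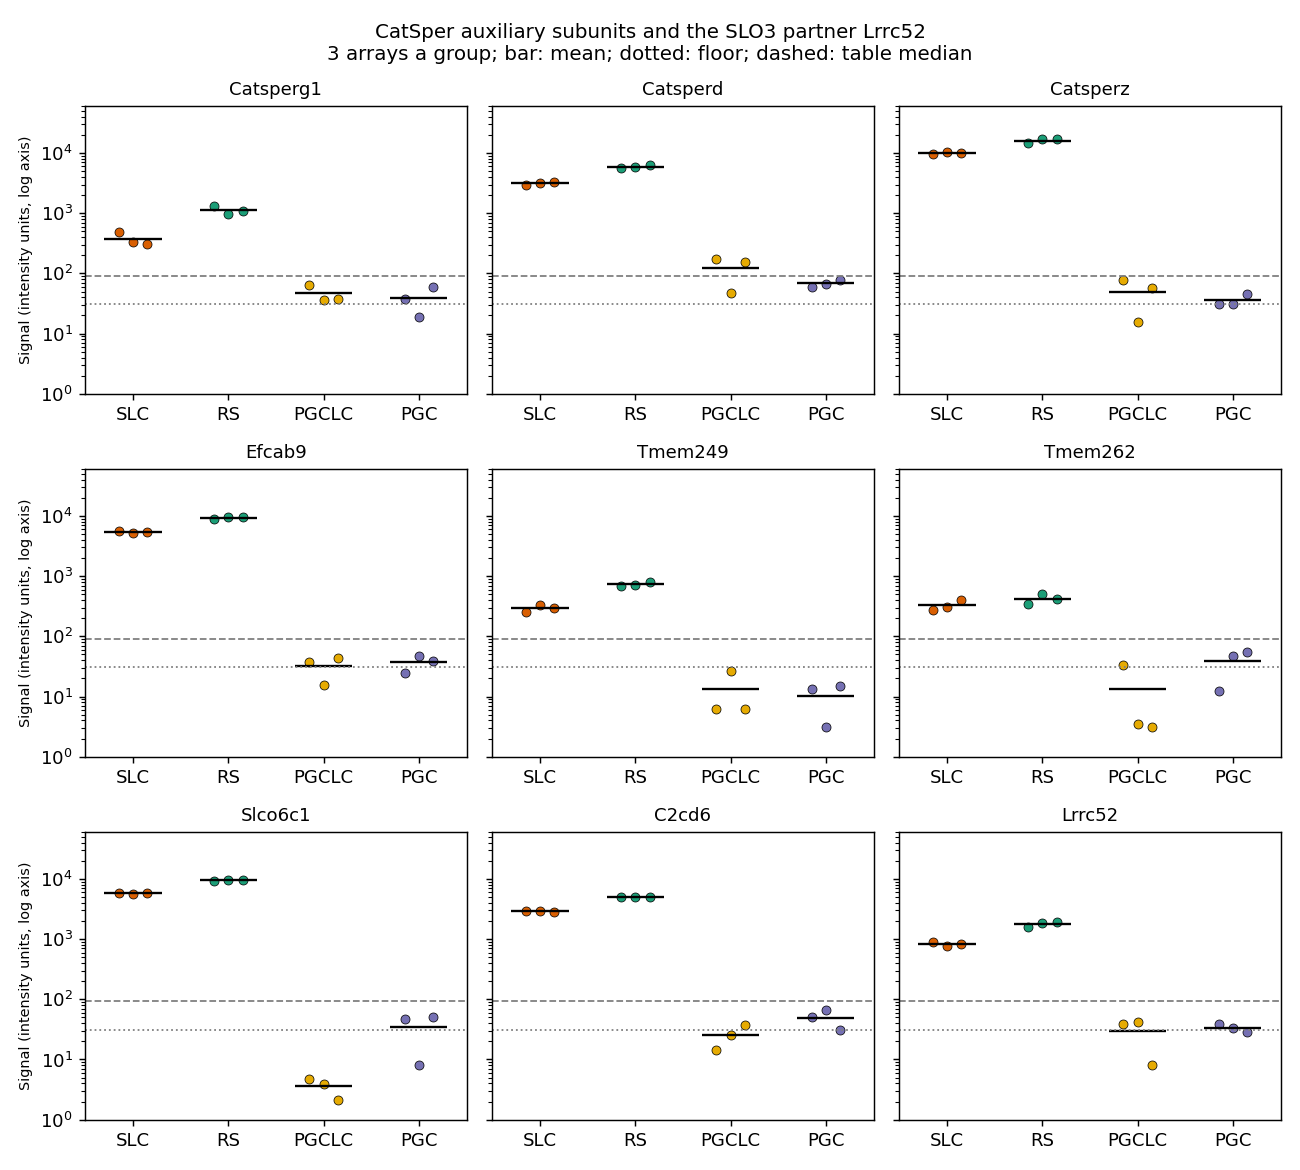
Signal of 8 CatSper auxiliary subunit genes and of Lrrc52 on each of 12 arrays, in intensity units on a log axis, for SLC, RS, PGCLC and PGC. Points are arrays, bars are means of 3, dotted is the floor and dashed the table median; all 9 are above the median on the SLC and RS arrays, and Catsperg1, Tmem249 and Lrrc52 are called lower in SLC than in RS.

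Lrrc52, the leucine-rich repeat subunit that lets SLO3 open at physiological pH, had 895, 773 and 824 units in SLC and 1617, 1844 and 1902 units in RS. It had 38.3, 42.4 and 8.04 units in PGCLC and 38.5, 33.3 and 28.5 units in PGC. The groups stood as for Kcnu1, and the SLC to RS gap of Lrrc52 was called (log2 -1.10, SE 0.17, limma adjusted p = 0.000181). Of 10 genes of the Slo potassium channel family and its subunits, 6 were measured. In RS against PGC 5 rose (Lrrc52, Kcnmb4, Lrrc26, Kcnma1 and Kcnt1) and 0 fell, where 31.5% of genes were called higher and 37.2% lower. Of the 6, 5 (all but Kcnmb4) had fewer than 3 early arrays above the table median and passed the filter through SLC and RS, so these rises are a description. In SLC against RS 0 rose and 2 fell, where 3.32% of genes were called lower. Kcnmb4, a β subunit of the calcium-activated BK channel, averaged 1573 ± 123 units in SLC, 2469.8 ± 258 in RS, 124 ± 23.7 in PGCLC and 103 ± 19.8 in PGC (SD, n = 3 each). Kcnma1, the BK pore and a widely expressed relative of Kcnu1, was nearer to the table median, at 75.5 to 159 units in SLC, 157 to 162 in RS, 6.88 to 85.1 in PGCLC and 21.0 to 67.9 in PGC. It rose in RS against PGC (log2 1.95), but SLC and RS overlapped. Kcnt1, a sodium-activated member of the family, was the other that fell in SLC (log2 -1.61), at 21.4 to 64.0 units against 99.2 to 136 in RS. It passed the filter through its 3 RS arrays alone, and 2 of 3 SLC arrays were at the floor, so this fall was a condition of being measured. The family list had a median of -0.76 for SLC minus RS. Of its 6 measured genes 3, Kcnma1 and Kcnt1 among them, passed the filter only with their RS arrays. This median and the count of falls are therefore a description.

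The partner subunits of Atp1a4 were highest in different groups. A sodium pump needs a catalytic α and a β subunit, and FXYD proteins tune it. Of 14 listed subunits and regulators 8 were measured, Atp1b4, Fxyd3 and Fxyd7 lay under the filter, and the others were not analysed here. In RS against PGC, 3 rose (Fxyd2, Atp1b3 and Fxyd4) and 4 fell (Fxyd6, Atp1b1, Atp1b2 and Fxyd1), where 31.5% of genes were called higher and 37.2% lower. Fxyd4, at 66.2 to 189 units in RS, passed the filter only with its RS arrays, so its rise is a description. Atp1b3, the β3 gene, had 11098, 11000.3 and 11102 units in SLC and 14780.3, 14505 and 14456 units in RS. It had 4654, 3814 and 4089 units in PGCLC and 4192, 4138 and 4192 units in PGC, and was thus bright in all groups and brightest in RS (RS minus PGC log2 1.80, SE 0.07, limma adjusted p = 1.37e-10). In SLC against RS it was lower by less than 2-fold (log2 -0.40, limma adjusted p = 0.000333).

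Atp1b1, the β1 gene, ran the other way. It had 2609, 3281 and 3105 units in SLC and 125, 103 and 124 units in RS, and 7095, 1948 and 5132 units in PGCLC beside 1293, 1194 and 1333 units in PGC. RS stood far below the other groups, and SLC and PGCLC overlapped. Atp1b1 rose in SLC against RS (log2 4.67, SE 0.35, limma adjusted p = 4.31e-07) and fell in RS against PGC (log2 -3.44, limma adjusted p = 1.71e-06). Of the 8 measured genes 4 rose in SLC against RS and 0 fell, where 23.5% of genes were called higher. Beside Atp1b1 these were Fxyd1, the phospholemman gene, at 333 ± 38.1 units in SLC and at the floor on all RS arrays (at least 10.8-fold), Fxyd5 (log2 2.82), at 2477 ± 44.9 units in SLC and 351 ± 10.95 in RS, and Atp1b2 (log2 2.26), at 242 ± 29.2 units in SLC and 55.4 ± 30.6 in RS (SD, n = 3 each). The peritubular, Leydig and Sertoli cell markers given above were high on the same SLC arrays, and their part in these 4 differences was not tested. Fxyd6 fell in RS against PGC (log2 -4.90, with all RS arrays at the floor) and Fxyd2 rose (log2 3.81). Fxyd5 and Atp1b2 were named after their values were seen, as were Fxyd4, Lrrc26 and the genes below that only complete a count (Hvcn1, Trpc2, Car2, Prkaca, Prkar1a, Atp2c1, Atp2c2, Cacna1d, Cacna1f and Cacna1g).

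**Figure D5:**
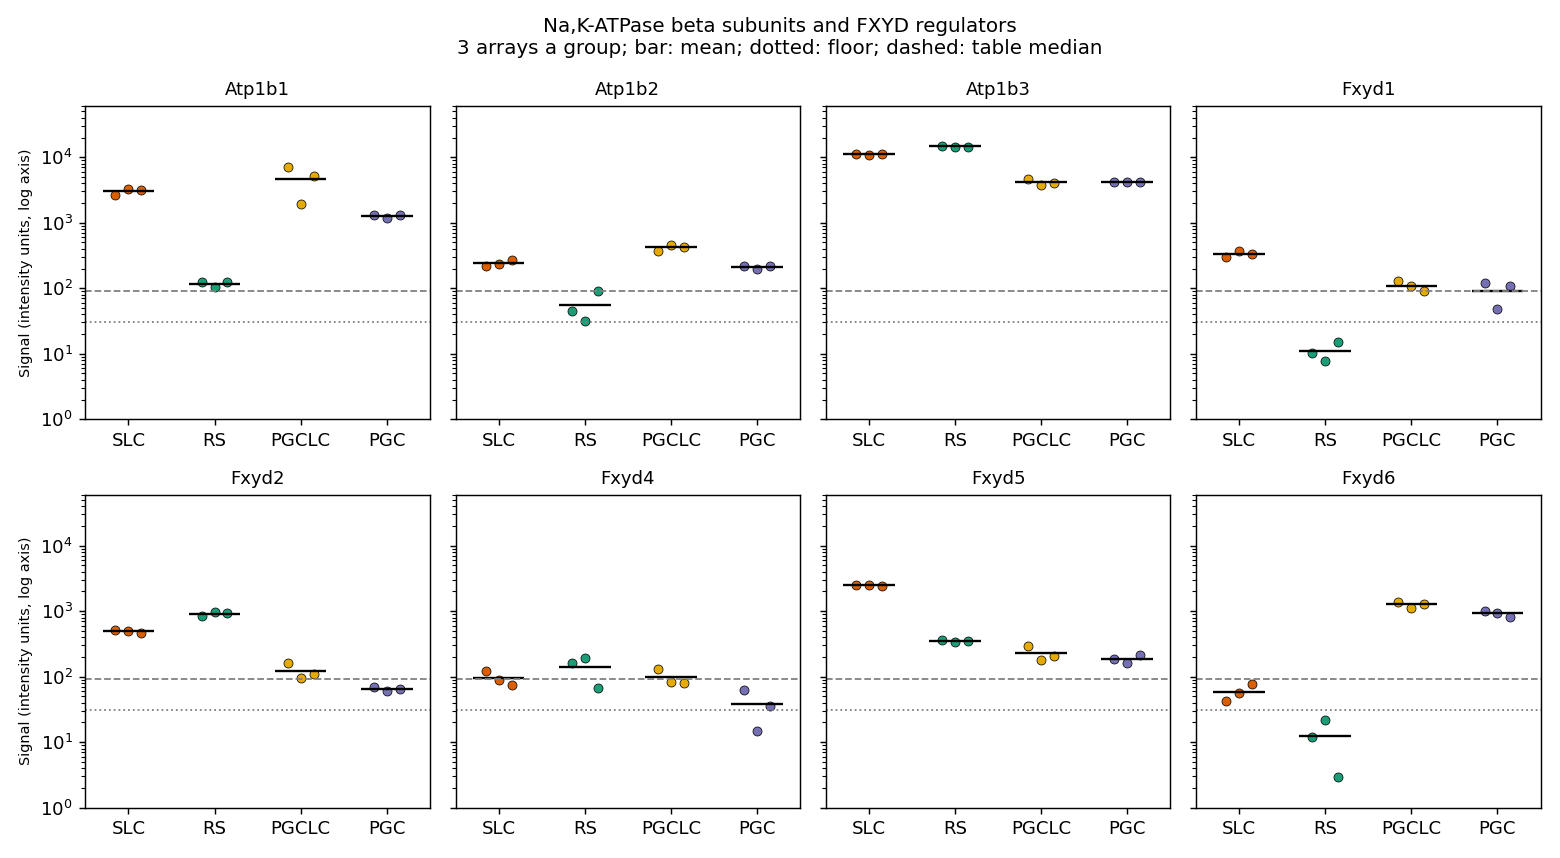
Signal of the 3 measured β subunit genes and the 5 measured FXYD genes of the Na,K-ATPase on each of 12 arrays, in intensity units on a log axis, for SLC, RS, PGCLC and PGC. Points are arrays, bars are means of 3, dotted is the floor and dashed the table median; Atp1b3 is bright throughout while Atp1b1, Atp1b2, Fxyd1 and Fxyd5 are lower in RS than in SLC.

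Of 15 other channels and exchangers of sperm 12 were measured, and 7 rose and 1, the proton channel gene Hvcn1, fell in RS against PGC, where 31.5% of genes were called higher and 37.2% lower. Of the 12, 7 had fewer than 3 early arrays above the table median and passed the filter through SLC and RS. Every gene that rose, except Cacna1h, was among them, so the count of rises is a description. Slc9b1, a sperm sodium-proton exchanger, averaged 4372.5 ± 51.3 units in SLC and 7550.4 ± 157 in RS, and Slc26a8, an anion transporter of the sperm annulus, 2189 ± 106 in SLC and 3956 ± 199.7 in RS (SD, n = 3 each). Both were near the floor in PGC, with log2 differences of 7.83 and 6.23 between RS and PGC. Of the 4 Slc9b1 probe sets that passed the filter, only 2, this one included, were higher in RS than in PGC. All 4 were lower in SLC than in RS. In SLC against RS 0 of 12 rose and 4 fell, where 23.5% of genes were called higher and 3.32% lower, and the median was -0.82. Those that fell were P2rx2, an ATP-gated cation channel (log2 -1.86), Pkdrej, a polycystin-related sperm protein (log2 -1.29), Lrrc52 and Trpc2 (log2 -1.03). Of the 12 measured genes 2, P2rx2 among them, passed the filter only with their RS arrays. This median and the count of falls are therefore a description.

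Bicarbonate acts on sperm through soluble adenylyl cyclase, the product of Adcy10. Adcy10 had 3126, 2902 and 2856 units in SLC and 5244, 5557 and 5254 units in RS, and 33.2 to 55.1 in PGCLC and 18.1 to 64.9 in PGC. Like the members it was lower in SLC than in RS by less than 2-fold (log2 -0.85, SE 0.26, limma adjusted p = 0.0138) and higher in RS than in PGC (log2 6.82, limma adjusted p = 1.76e-10). Of the 8 measured genes of bicarbonate, pH and cAMP signalling, 5 rose and 0 fell in RS against PGC, where 31.5% of genes were called higher and 37.2% lower. Beside Adcy10 these were the bicarbonate transporter gene Slc4a8 (log2 3.02), Car2, Prkaca and Prkar1a. Adcy10 and Slc4a8 passed the filter through SLC and RS, so their rises are a description. In SLC against RS 1 rose, the anion exchanger Slc4a2 (log2 1.05), and 0 fell, where 23.5% of genes were called higher and 3.32% lower.

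Calcium pumps move calcium out of the cytoplasm. Of 9 listed 7 were measured. In RS against PGC 1 rose (Atp2c2) and 3 fell, where 31.5% of genes were called higher and 37.2% lower. Those that fell were the plasma membrane pumps Atp2b1 (log2 -3.55) and Atp2b4 (log2 -2.16) and the Golgi pump Atp2c1 (log2 -1.22). Atp2c2 had 2 RS and 2 PGCLC arrays above the table median and passed the filter only with its RS arrays, so its rise is a description. Atp2b1 rose in SLC against RS (log2 2.36, SE 0.19, limma adjusted p = 6.65e-07), with 785 ± 76.8 units in SLC and 157 ± 40.3 in RS (SD, n = 3 each). The reticulum pump gene Atp2a2 was higher in SLC by less than 2-fold (log2 0.97). Of 10 voltage-gated calcium channel α1 genes 7 were measured. In RS against PGC 5 were higher (Cacna1h, Cacna1s, Cacna1g, Cacna1d and Cacna1c) and 1 lower (Cacna1f), where 31.5% of genes were called higher and 37.2% lower. Of the 7, 4 (Cacna1s, Cacna1g, Cacna1d and Cacna1c) passed the filter only with SLC or RS arrays. All 4 were among those higher in RS, so that count is a description. Cacna1h, of the T type, averaged 1534 ± 89.1 units in SLC and 2954 ± 289 in RS (SD, n = 3 each), and was higher in RS than in PGC by 4.98. Cacna1s, of the L type, was higher by 3.36 in RS, and PGC was at the floor on all 3 arrays. In SLC against RS 1 of the 7 rose, Cacna1c (log2 1.18), and 0 fell, where 23.5% of genes were called higher and 3.32% lower. Cacna1c passed the filter through its 3 SLC arrays alone, so this rise was a condition of being measured. Cacna1h stood at -0.94.

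Over the 12 arrays the log2 signals of the 5 members correlated with each other at Pearson's r of 0.986 to 0.998 in 10 pairs. This is a description over arrays that fall into stages, with no test. For each member 2537 to 2600 of the other 14192 genes reached an r of at least 0.95, about 17.9% to 18.3%. The 3 most alike were Tekt1, Gxylt2 and Dmrtb1 for Catsper1, Tbpl1, Prkag2 and Slc26a8 for Catsper2, and Arrdc5, Ccdc96 and Morn5 for Catsper3. For Kcnu1 they were Dnajb8, Samd4 and Maats1, and for Atp1a4 Izumo3, Tctex1d1 and Nme8. Tekt1, a tektin gene, had an r of 0.999 with Catsper1 and averaged 6175 units in SLC, 10805 in RS, 71.8 in PGCLC and 43.7 in PGC. Izumo3, an acrosome gene and the closest to Atp1a4, averaged 4995 units in SLC, 7965 in RS, 12.7 in PGCLC and 15.1 in PGC.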

How the data were processed

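Each probe set has 1 deposited intensity on a linear scale; MAS5 is named without a version, per the submitters' processing notes. The 2% trimmed mean was the same, 500.0 units, on every array, a scaling that keeps differences in composition between arrays. Build, detection calls and scan batches are not given in the sources used here, and 12 arrays limit the precision. Of 45101 probe sets, 34945 had 1 gene symbol, 932 several, 9160 none, and 64 were controls. Values under 30.7 units were floored before log2. Probe sets above 92.0 units on at least 3 arrays were kept (24949), and the one with the highest mean stood for its gene (14197 genes). All 12 arrays entered 1 limma 3.58.1 fit (R 4.3.3; lmFit, eBayes with trend), with contrasts between group means, and the methods were tested on simulated data. Groups came from sample titles. The members and lists were chosen with earlier results of these data known. Named genes were the members, the 2 largest changes of each list in RS minus PGC and in SLC minus RS, and listed relatives. Alternatives varied floor, scaling, filter, probe set choice, variance model, block and arrays.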

Additional observations from a re-analysis of the deposited data

Results flagged for a closer look

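For Catsper1 the change between stages was smaller in culture (SLC minus PGCLC) than in the animal (RS minus PGC), by an interaction term of -1.31 on the log2 scale (limma adjusted p = 0.00556), with changes of 5.34 in culture and 6.66 in the animal. For Kcnu1 the term was -1.37 (limma adjusted p = 0.00792), with changes of 4.88 in culture and 6.25 in the animal. Both PGCLC and PGC levels of these genes lay near or under the table median.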

How the results depend on the processing

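All 5 members were called higher in SLC than in PGCLC and in RS than in PGC under every alternative run, with any array left out. For SLC minus RS, 0 members were called, but 3 lower with median centring and 5 lower with no minimum fold. For PGCLC minus PGC, 0 were called, but 1, Atp1a4, with the floor at the 10th percentile or with no floor. For the interaction, 2 were called, but 4 with no minimum fold and 0 with quantile normalization and 2 to 3 with 1 array left out (3 without PGC replicate 2, which added Catsper3). Catsper3 in PGCLC minus PGC turned to -0.11 with the lower floor and to -0.10 with no floor, with median centring and with quantile normalization (-0.097), and ranged from -0.0017 to 0.29 with 1 array left out. The interaction turned to 0.39 (lower floor) and 1.17 (no floor) for Atp1a4 and to 0.17 (quantile normalization) for Catsper2. For SLC minus RS, the limma adjusted p passed 0.05 for Atp1a4 with the lower floor (0.0567) or none (0.180), for Catsper3 likewise (0.0580 and 0.0541), for Catsper1 without RS replicate 2 (0.0551) and for Kcnu1 without RS replicate 1 (0.0545). The Catsper3 interaction had an adjusted p of 0.0522 to 0.0541 without SLC replicate 1 or 2 or PGC replicate 1 or 3. The cause was not tested.

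Over all genes, PGCLC minus PGC had 1458 higher and 227 lower, against 168 and 7 in a fit of the 6 arrays, 2366 and 1916 with no minimum fold, and 2363 and 342 counting probe sets. The number lower was 877 with median centring and 376 with quantile normalization, 97 to 113 when a PGC array was left out, and, leaving out PGCLC replicate 1, 58, replicate 2, 757, and replicate 3, 88 (with 958 higher). SLC minus RS had 3335 higher and 472 lower, with 47 lower after marker centring, 2492 with median centring, 2230 with quantile normalization, 289 with no floor and 4472 with no minimum fold, and 5997 higher and 989 lower counting probe sets. Counting probe sets gave 10302 lower for RS minus PGC (5277 genes), 7852 lower for SLC minus PGCLC (3826 genes) and 5073 higher and 2447 lower for the interaction (2936 and 1571 genes, with 3101 lower without a minimum fold).

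Same-numbered arrays of different groups deviated from their group means with correlations of -0.017 to 0.13 across genes. Differently numbered arrays were not compared, so these values do not settle whether replicate numbers pair the arrays. With a replicate block the counts of members called were 0, 5, 5, 0 and 2 for PGCLC minus PGC, RS minus PGC, SLC minus PGCLC, SLC minus RS and the interaction, and Catsper1 in PGCLC minus PGC had a limma adjusted p of 0.0473. Of the 6 early arrays, 1 was under the floor for Catsper1, 3 for Catsper3 and 5 for Atp1a4, which limits their early levels.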
